A study of Mus musculus with 24 samples.

Results

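The comparison described here sets 4T1-T mouse breast cancer cells recovered from lung metastases against the same line recovered from primary tumors, all carrying the Asns hairpin shAsns-2. It takes the 4 lung shAsns-2 libraries and the 4 tumor shAsns-2 libraries, 8 of the 24 libraries in the series, chosen by their titles, and covers all genes. Per the labels, the cells were selected in 6-thioguanine (6TG) and infected with the shRNA, and the medium was DMEM plus non-essential amino acids. Every group shares that line, selection and medium, and each has 4 libraries with the letters A to D. The other groups, used only where they bear on these 8, are lung and tumor cells with the control hairpin shRenilla and lung and tumor libraries labelled shAsns-1. The values are RNA of cells in culture after recovery, not of lung or tumor tissue.

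4T1 cells are a mammary carcinoma line that spreads to the lung of its host, and a resistance to thioguanine lets them be separated from host cells in culture. Asparagine synthetase, encoded by Asns, makes asparagine from aspartate and glutamine, and shRenilla targets a luciferase that mouse cells lack. Carcinoma cells that leave a primary tumor can turn down epithelial junction genes such as Cdh1 and turn up mesenchymal ones, a change known as the epithelial-mesenchymal transition, with SNAI, ZEB and TWIST transcription factors among its known drivers.

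Total counts ran from 25.9 to 32.7 M (1 M is 1000000 counts) in lung shAsns-2 libraries and from 8.48 to 38 M in tumor shAsns-2 libraries, with the lowest total in tumor library A. No 2 of the 8 libraries were duplicates. Lung library D stood apart: 884 of 12625 tested genes (7.00%) lay at least 2-fold from the mean of the other 3 lung libraries, 768 of them above it, against 128 to 166 genes for lung libraries A to C. Tumor libraries A and D followed with 502 and 418 such genes. Malat1, a nuclear long non-coding RNA, had 14450 CPM (counts scaled to 1 M in each library) in lung library D, 3936 to 4647 CPM in lung libraries A to C, and 3714 to 6793 CPM in the tumor libraries. Other nuclear RNA also differed between the groups outside library D. Kcnq1ot1, an imprinted antisense RNA, had 135 to 149 CPM in lung libraries A to C, 730.2 CPM in lung library D and 277 to 380 CPM in the tumor libraries. The 110 small nucleolar RNA genes (Snord and Snora) summed to 106 to 123 CPM in lung libraries A to C, 365 CPM in lung library D and 217 to 272 CPM in the tumor libraries. The part of nuclear RNA in any result below was not tested, and list counts that change are also given without lung library D.

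On the first principal component of all 24 libraries, which held 38.8% of the variance, the lung shAsns-2 libraries scored -26.5, -23.0, -19.2 and 0.199. The tumor shAsns-2 libraries scored between 35.5 and 38.5. The groups did not overlap, and library D was the lung library nearest to the tumor cells.

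**Figure D1:**
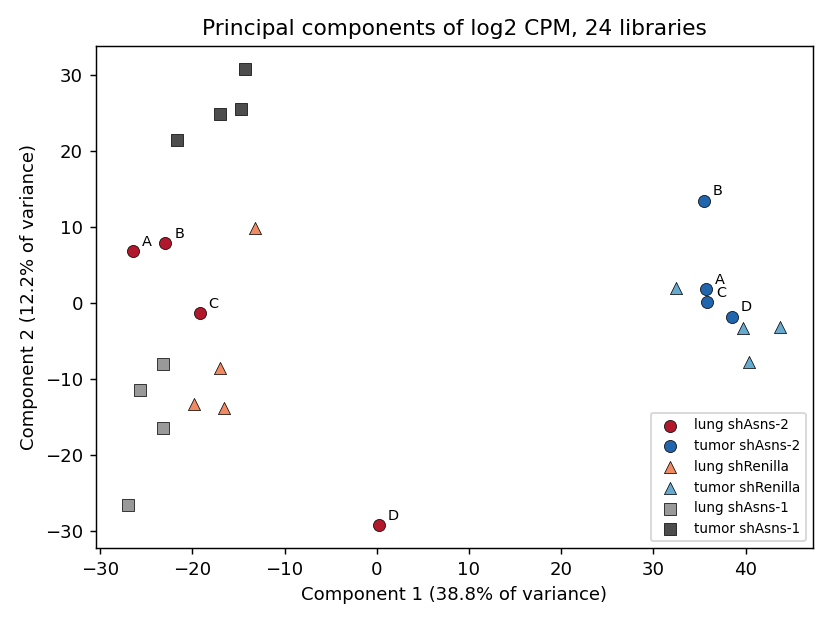
Scores of the 24 libraries on the first and second principal components of log2 CPM, in arbitrary score units, with the shAsns-2 libraries lettered. The 4 tumor shAsns-2 libraries lie between 35.5 and 38.5 on component 1, lung libraries A to C lie between -26.5 and -19.2, and lung library D lies at 0.199 and apart on component 2.

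The targeted gene, Asns (chromosome 6, 7675169 to 7693254, minus strand, GRCm38), had 44.5, 46.7, 51.3 and 35.8 CPM in lung shAsns-2 libraries A to D, against 48.3, 42.4, 30.4 and 26.2 CPM in tumor shAsns-2 libraries A to D. The groups overlap, and no difference was detected (log2 fold change 0.29 ± 0.16 SE, 95% interval -0.04 to 0.62, edgeR quasi-likelihood adjusted p = 0.216, exact permutation p = 0.229 two-sided, n = 4 each). Of 17 alternatives 2 called it: limma with library weights gave 0.35 and an adjusted p of 0.0341, and leaving out tumor library A and lung library D together gave 0.55 and an adjusted p of 0.0155. With shAsns-2, Asns averaged 44.6 ± 6.51 CPM in lung cells and 36.8 ± 10.3 CPM in tumor cells, and with shRenilla 63.5 ± 7.89 CPM in lung cells and 82.8 ± 15.9 CPM in tumor cells (SD, n = 4 each). In the libraries labelled shAsns-1 it averaged 194 ± 18.2 CPM in lung and 170 ± 17.1 CPM in tumor (SD, n = 4 each), above shRenilla at both sites, so those libraries go against their label. Hprt, the salvage enzyme whose loss gives resistance to thioguanine, had a log2 fold change of -0.04 (adjusted p = 0.889).

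Lung and tumor shAsns-2 cells differed in 2642 of 12625 genes tested (20.9%) at an adjusted p under 0.05, which is what "called" means below. Of these, 1270 (10.1%) were higher in lung cells and 1372 (10.9%) lower, and 587 passed a fold change of 2 as well. In 2297 genes (18.2%) the groups did not overlap, with all 4 lung libraries above all 4 tumor libraries in 8.54% of genes and below them in 9.66%. Lung library D lay beyond all tumor libraries in 73.5% of the called genes, and lung libraries A to C in 96.4 to 97.2%. Without lung library D the count was 3977 of 12713 tested genes, 1947 higher and 2030 lower, and 2504 of the 2642 calls (94.8%) were made again in the same direction. With the 2 compared groups fitted alone, 1622 of the 2642 (61.4%) were made again. The list counts below are to be read against these counts over all genes, which also grew without lung library D.

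The 15 largest rises included secreted and signalling genes such as Mgp, Tslp, Mmp3 and Trib2, and the 15 largest falls included epithelial, growth factor and chemokine genes such as Cdh1, Fgfbp1 and Cxcl1. All 30 genes in these leading sets were called under each of 17 alternative settings, and in all of them the lung and tumor libraries were separate, since the naming rule asked for that.

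**Figure D2:**
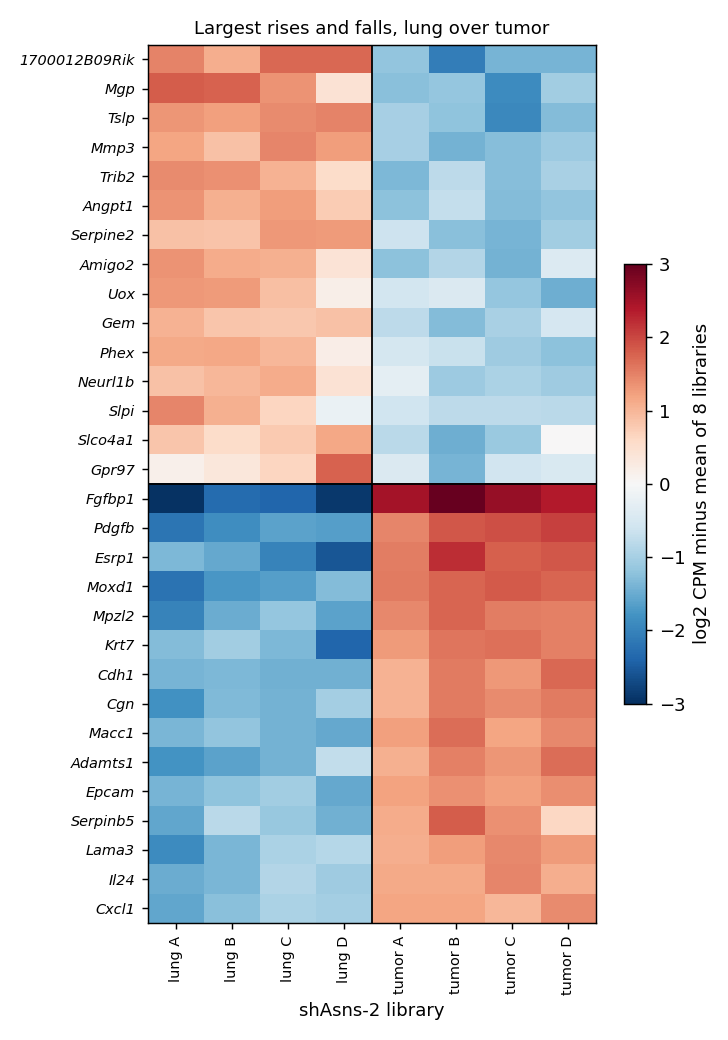
Log2 CPM minus the mean of the 8 libraries (color) for the 15 largest rises (above the line) and 15 largest falls (below it) in lung over tumor shAsns-2 cells, one column per library, lung left of tumor. Lung library D is the palest lung column for several rises, such as Mgp, Uox and Slpi.

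Epithelial genes fell together. Of 74 genes in 5 lists that the table holds, 60 passed the filter on low counts and were tested. Over the 5 lists (cadherin and nectin junctions, desmosomes, tight junctions with Epcam, keratins, epithelial regulators), 39 of 60 tested genes (65%) fell in lung cells and 0 rose, against 10.9% and 10.1% of all genes. Their median log2 fold change was -1.06, and that of all genes was 0.00513. In 41 of the 60 every lung library lay below every tumor library, which held in 9.66% of all genes. Their mean log2 CPM was 2.75 to 2.94 in the lung libraries and 3.93 to 4.24 in the tumor libraries, with no overlap. Without lung library D, 40 fell and 2 rose.

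Cdh1 (chromosome 8, 106603351 to 106670246, plus strand) encodes E-cadherin, the adhesion protein of epithelial adherens junctions. It had 34.7, 35.6, 33.7 and 33.4 CPM in the lung libraries, against 189, 267, 223 and 298 CPM in the tumor libraries. The lung values lay within a few CPM of each other and far below the tumor values, a log2 fold change of -2.83 ± 0.19 (adjusted p = 2.18e-11). The other called members of its list included Jup, the catenin shared by adherens junctions and desmosomes, at -0.88 ± 0.17 (adjusted p = 0.000455). In all, 4 of 8 tested junction genes fell and 0 rose (list median -0.46), or 4 and 1 without lung library D.

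Epcam, an epithelial adhesion molecule, had 19.4, 21.8, 24.4 and 17.4 CPM in the lung libraries, against 116, 130, 118 and 134 CPM in the tumor libraries. That gap was 6.01-fold, with log2 fold change -2.59 ± 0.15 (adjusted p = 4.34e-12). Esrp1 (chromosome 4, 11331933 to 11386783, minus strand), a splicing factor that sets the epithelial forms of many transcripts, had 4.97, 4.40, 3.16 and 2.13 CPM in the lung libraries. The tumor libraries had 36.9, 58.9, 44.1 and 46.4 CPM, so the groups were well apart (log2 fold change -3.67 ± 0.47, adjusted p = 2.42e-06). Grhl2, a transcription factor of epithelial identity, fell less, to 8.96 ± 0.513 CPM in lung cells, against 21.2 ± 3.79 CPM in tumor cells (SD, n = 4 each, adjusted p = 1.77e-06).

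The epithelial regulators also included Ovol1 and Ovol2, zinc finger repressors known to hold cells in the epithelial state, and the trafficking GTPase Rab25. Ovol1 had 0.348 to 1.10 CPM in lung libraries and 2.03 to 2.91 CPM in tumor libraries. Ovol2 and Rab25 were low throughout, at most 1.39 and 2.01 CPM, and both were lower in every lung library. Of 16 tested regulators 9 fell and 0 rose (median -0.91).

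Tight junction genes had the lowest list median: 18 of 22 were lower in lung cells, 0 were higher, and the median was -1.69. Cgn, the junction scaffold cingulin, had 3.01, 4.18, 3.91 and 5.22 CPM in the lung libraries, against 21.6, 31.2, 27.9 and 30.9 CPM in the tumor libraries (log2 fold change -2.78 ± 0.18, adjusted p = 1.34e-11). Cldn3, a claudin of the tight junction seal, had 0.888 to 1.61 CPM in lung libraries and 8.53 to 14.1 CPM in tumor libraries.

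Among desmosome genes 5 of 8 fell (median -0.99), or 6 without lung library D. Dsg2, a desmosomal cadherin, had 17.9 to 25.1 CPM in lung libraries and 73.8 to 97.9 CPM in tumor libraries, and Perp, a desmosome membrane protein, 86.8 to 120 CPM in lung libraries and 255 to 340 CPM in tumor libraries. Keratins split. Krt7 had 12.2, 14.7, 11.9 and 5.83 CPM in the lung libraries, against 73.7, 91.8, 95.2 and 85.9 CPM in the tumor libraries (log2 fold change -2.95 ± 0.24, adjusted p = 1.54e-09). Krt14, a basal keratin, fell by 2.11 on the log2 scale, with 7.12 to 12.5 CPM in lung libraries and 32.8 to 54.4 CPM in tumor libraries. The luminal keratins Krt8 and Krt18 were not called: Krt8 averaged 223 ± 65.9 CPM in lung cells and 217 ± 16.3 CPM in tumor cells, and Krt18 335 ± 112 CPM in lung cells and 274 ± 45 CPM in tumor cells (SD, n = 4 each). Without lung library D, where it was lowest, Krt18 was called higher, with a log2 fold change of 0.54 (adjusted p = 0.0127).

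The promoters shown are those of Epcam and of the 3 largest falls with an entry in the promoter table, because SNAI and ZEB repressors are known to bind the E-box CAGGTG in the promoters of epithelial genes. The sequences run from 250 bases before the start of the gene to 50 bases after it, 5′ to 3′ on the gene's own strand, from RefSeq on GRCm38.p6, with each CAGGTG or its reverse complement CACCTG in capitals. Epcam (chr17:87635729-87636028, plus strand) held 2 matches, their first bases 187 and 19 bases before the start. Krt7 (chr15:101412153-101412452, plus strand) held 1 at 44 bases and Moxd1 (chr10:24223267-24223566, plus strand) 1 at 78 bases before the start, and Fgfbp1 (chr5:43981750-43982049, minus strand) held 0. Among the leading rises, the promoters of 1700012B09Rik, Mmp3 and Trib2 were examined in the same way, held 0 each and are not printed.
Epcam: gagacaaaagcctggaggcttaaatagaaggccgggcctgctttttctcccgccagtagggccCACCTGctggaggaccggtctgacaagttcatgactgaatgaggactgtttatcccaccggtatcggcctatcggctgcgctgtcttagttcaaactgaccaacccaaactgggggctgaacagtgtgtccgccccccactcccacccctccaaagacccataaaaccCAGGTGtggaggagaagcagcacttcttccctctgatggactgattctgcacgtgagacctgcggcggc
Krt7: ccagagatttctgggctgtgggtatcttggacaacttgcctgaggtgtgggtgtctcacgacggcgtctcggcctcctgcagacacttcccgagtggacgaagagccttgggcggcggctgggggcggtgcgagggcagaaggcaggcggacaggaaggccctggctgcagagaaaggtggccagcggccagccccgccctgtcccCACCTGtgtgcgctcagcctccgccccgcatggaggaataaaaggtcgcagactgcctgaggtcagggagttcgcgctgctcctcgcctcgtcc
Moxd1: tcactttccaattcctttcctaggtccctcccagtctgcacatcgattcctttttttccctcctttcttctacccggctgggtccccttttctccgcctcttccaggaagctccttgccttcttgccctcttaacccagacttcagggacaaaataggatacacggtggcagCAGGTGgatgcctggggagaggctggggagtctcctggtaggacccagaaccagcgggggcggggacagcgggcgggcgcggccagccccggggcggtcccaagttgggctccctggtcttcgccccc
Fgfbp1: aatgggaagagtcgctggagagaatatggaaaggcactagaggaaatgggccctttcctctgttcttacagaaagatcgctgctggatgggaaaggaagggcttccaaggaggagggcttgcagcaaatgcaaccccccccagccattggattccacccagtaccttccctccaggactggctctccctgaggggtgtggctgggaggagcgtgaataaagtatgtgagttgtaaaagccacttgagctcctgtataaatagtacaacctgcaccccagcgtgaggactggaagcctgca

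The motif, searched on both strands, was in 211 of 947 promoters of genes called lower in lung cells (22.3%) and in 145 of 945 of genes called higher (15.3%). It was in 1578 of 9309 promoters of all tested genes (17.0%) and 20.0% of all 27025 RefSeq promoters. Each share counts 1 promoter per gene. Binding of SNAI or ZEB factors to these promoters, and any part of it in the falls, was not tested. Of the 15 leading falls 9 had an entry and 4 of these held a match, and of the 15 leading rises 10 had an entry and 2 held a match. Cdh1, Esrp1, Pdgfb and Mpzl2 were not in the promoter table used here.

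**Figure D3:**
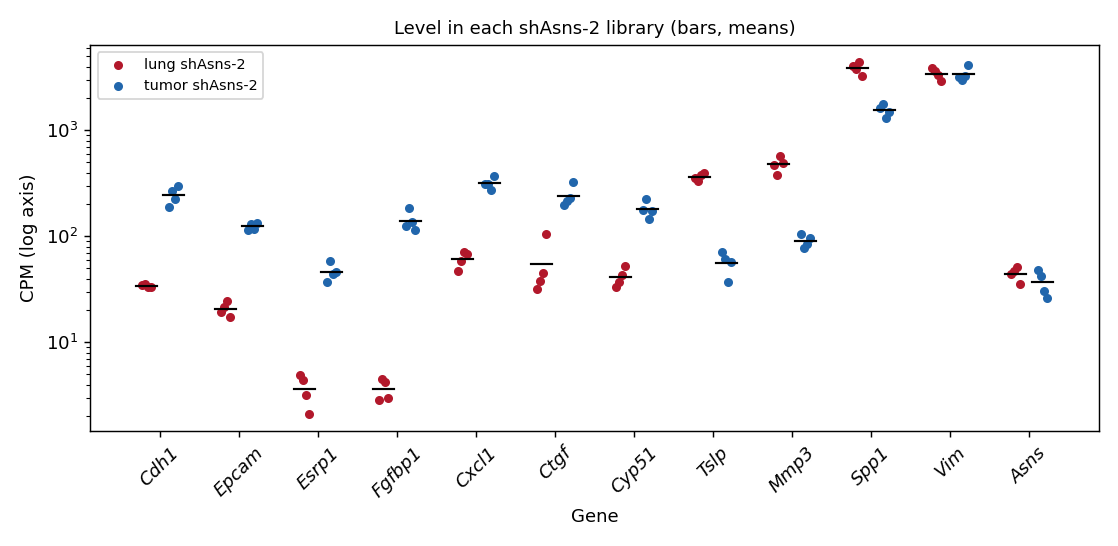
CPM on a log axis for 12 genes in each of the 8 shAsns-2 libraries, lung left of tumor, with bars at the group means. Cdh1, Epcam, Esrp1, Fgfbp1, Cxcl1, Ctgf and Cyp51 are lower in every lung library, Tslp, Mmp3 and Spp1 are higher in every lung library, and Vim and Asns overlap.

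Mesenchymal genes moved both ways, and their counts depended on lung library D. Of 12 tested EMT transcription factors 1 was called higher and 1 lower (median 0.30), or 3 and 1 without lung library D. Of 23 mesenchymal and cytoskeletal genes 2 were higher and 6 lower (median 0.01), or 0 and 10 without lung library D. Over all genes 10.1% were higher and 10.9% lower, or 1947 and 2030 of 12713 without lung library D. Vim, the intermediate filament vimentin, averaged 3425 ± 403 CPM in lung cells and 3399 ± 522 CPM in tumor cells (SD, n = 4 each, adjusted p = 0.959, 95% interval -0.23 to 0.25 on the log2 scale). Fn1, fibronectin, had 748, 760, 842 and 1544 CPM in the lung libraries and 1005, 978, 1053 and 1340 CPM in the tumor libraries. With library D the groups overlap and the adjusted p was 0.555, whereas without it Fn1 was called lower in lung cells, with a log2 fold change of -0.45 (adjusted p = 0.0197).

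Zeb2, a zinc finger repressor of Cdh1, had 90.4, 84.0, 81.6 and 84.4 CPM in the lung libraries, against 74.1, 67.9, 56.8 and 67.2 CPM in the tumor libraries. The groups are apart, but the change of 0.36 ± 0.15 on the log2 scale missed the threshold (adjusted p = 0.0819), and 7 of 17 alternatives called it. Zeb1, Twist1 and Snai1 were not called, with log2 fold changes of 0.37, 0.21 and 0.08. Without tumor library D, its highest tumor value, Twist1 was called at 0.46 (adjusted p = 0.0281). Tcf4, a further E-box factor, rose to 210 ± 6.61 CPM in lung cells, against 155 ± 14.5 CPM in tumor cells (SD, n = 4 each, adjusted p = 0.00314). Snai3, a member of the SNAI family, fell, with at most 0.320 CPM in lung libraries and at least 0.717 CPM in tumor libraries. Cdh2, N-cadherin, was at most 0.142 CPM in any of the 8 libraries and was not tested.

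The 2 mesenchymal genes called higher were the smooth muscle genes Acta2, with 1.05 to 2.77 CPM in lung libraries and 0.359 to 1.42 CPM in tumor libraries (adjusted p = 0.0465), and Tagln, with 1.55 to 2.63 CPM in lung libraries and 0.987 to 1.43 CPM in tumor libraries (adjusted p = 0.0333). Both were highest in lung library D and lost the call without it, and 6 of 17 alternatives kept that of Acta2 and 7 that of Tagln. Among the 6 that fell, Postn, the matrix protein periostin, had at most 0.320 CPM in lung libraries and 1.42 to 2.84 CPM in tumor libraries. Adam12, a membrane metalloproteinase of another list, had 4.97, 6.47, 6.74 and 11.7 CPM in the lung libraries, against 32.3, 34, 37 and 33.3 CPM in the tumor libraries (log2 fold change -2.20 ± 0.17, adjusted p = 3.74e-10). Of the mesenchymal list, the hyaluronan receptor Cd44 and the receptor kinase Axl fell less than Postn, by 0.68 and 0.60 on the log2 scale. Among integrins and laminins, 2 of 20 rose and 4 fell, against 10.1% and 10.9% of all genes (1 and 7 without lung library D). Lama3, a chain of the basement membrane laminin of epithelia, had 3.80 to 7.78 CPM in lung libraries and 30.2 to 38.5 CPM in tumor libraries. Lamb3, another chain of that laminin, was called only when lung library D, at 34.1 CPM against 7.16 to 10.5 CPM in the other lung libraries, was left out or down-weighted (log2 fold change -1.42 without it, adjusted p = 0.000378).

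Growth factor genes held the largest fall of all that met the naming rule. Fgfbp1 (chromosome 5, 43978858 to 43981779, minus strand), a carrier that releases fibroblast growth factors from the matrix, had 2.85, 4.52, 4.26 and 3.02 CPM in the lung libraries. The tumor libraries had 125, 187, 136 and 115 CPM, a 38.4-fold gap (log2 fold change -5.26 ± 0.27, adjusted p = 7.35e-13). Pdgfb, a platelet-derived growth factor chain, had 1.74 to 2.60 CPM in lung libraries and 22.0 to 33.2 CPM in tumor libraries, and Macc1, a regulator of the Met receptor gene, 12.0 to 15.5 CPM in lung libraries and 79.3 to 112 CPM in tumor libraries. Vegfc, a lymphatic growth factor, fell to 16.5 ± 4.69 CPM in lung cells, against 40.9 ± 5.88 CPM in tumor cells (SD, n = 4 each, adjusted p = 9.32e-06). Of 29 tested receptor kinase and growth factor genes 14 fell and 6 rose (median -0.36), against 10.9% and 10.1% of all genes. Without lung library D the counts were 14 and 5. Among the 6, Mertk, a receptor for dying cells, had 0.982 to 1.46 CPM in lung libraries and 0.119 to 0.466 CPM in tumor libraries.

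Beyond the growth factors, Moxd1, a monooxygenase-like protein, fell to 2.34 to 4.44 CPM in lung libraries, against 32.5 to 39.5 CPM in tumor libraries. Mpzl2, an adhesion protein of epithelia, had 6.93 to 12.5 CPM in lung libraries and 75.8 to 94.0 CPM in tumor libraries. Adamts1, a matrix protease, fell by 2.75 on the log2 scale and Serpinb5, the serpin maspin of mammary epithelium, by 2.51. In each of these genes every lung library lay below every tumor library, as the naming rule for the leading falls asked.

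Chemokines fell together: 8 of 14 tested were lower in lung cells and 0 higher, against 10.9% and 10.1% of all genes. The list median was -0.91, and 1 was higher without lung library D. Cxcl1, a neutrophil attractant, had 46.8, 58.3, 71.7 and 68.0 CPM in the lung libraries, against 314, 312, 275 and 368 CPM in the tumor libraries. The groups were 5.18-fold apart (log2 fold change -2.37 ± 0.14, adjusted p = 6.06e-12). Cxcl5, which acts on the same receptor, had 65.5 to 105 CPM in lung libraries and 237 to 359 CPM in tumor libraries. Cxcl16 and Ccl20 fell by 1.92 and 1.78 on the log2 scale.

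Cytokines moved both ways, with 7 of 18 higher and 6 lower in lung cells, against 10.1% and 10.9% of all genes. Tslp, a cytokine of epithelia that acts on dendritic cells, had 355, 333, 380 and 398 CPM in the lung libraries, against 71.0, 61.3, 36.9 and 57.4 CPM in the tumor libraries. Its lung values were all several times any tumor value (6.50-fold between the fitted groups, log2 fold change 2.70 ± 0.20, adjusted p = 1.35e-10). Spp1, osteopontin, rose to 3853 ± 490 CPM in lung cells, against 1546 ± 207 CPM in tumor cells (SD, n = 4 each, adjusted p = 4.13e-05). Il11, a cytokine of the interleukin 6 family, had 13.8 to 29.1 CPM in lung libraries and 4.63 to 11.9 CPM in tumor libraries. Il33, an alarmin, was low, with 0.995 to 4.21 CPM in lung libraries and 0.354 to 1.08 CPM in tumor libraries, so its groups overlap although it was called (adjusted p = 0.00107).

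Among the cytokines that fell, Il24 had 19.2, 20.8, 29.3 and 25.8 CPM in the lung libraries, against 118, 117, 147 and 114 CPM in the tumor libraries. Il1a, an inflammatory cytokine, had 2.03 to 2.42 CPM in lung libraries and 5.86 to 9.56 CPM in tumor libraries. Lif, of the interleukin 6 family, fell by 1.48 and Il23a, a subunit of interleukin 23, by 1.33 on the log2 scale. In all 4 genes the groups were apart, which the naming rule had asked of Il24.

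In the list of TGF-beta ligands, TGF-beta response genes and targets of the coactivator YAP, 11 fell and 3 rose of 24 tested. The shares over all genes were 10.9% and 10.1%. The list median was -0.43, and 15 fell and 3 rose without lung library D. Ctgf and Cyr61, matricellular proteins and common YAP targets, were lower in every lung library, but library D was the highest of them. Ctgf had 31.8, 38.1, 45.4 and 105 CPM in the lung libraries, against 196, 215, 231 and 324 CPM in the tumor libraries (log2 fold change -2.13 ± 0.27, adjusted p = 1.64e-06). Cyr61 had 56.1, 67.2, 92.2 and 241 CPM in the lung libraries and 336, 265, 319 and 470 CPM in the tumor libraries. Inhba, an activin subunit, fell by 1.38 on the log2 scale. Smad3, a transducer of TGF-beta signals, went the other way, with 35.6 to 58.5 CPM in lung libraries and 26.3 to 33.9 CPM in tumor libraries.

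Immediate early genes showed a like split, 11 of 23 lower and 2 higher (median -0.42), against 10.9% and 10.1% of all genes. Myc fell to 152 ± 13.7 CPM in lung cells, against 295 ± 52.8 CPM in tumor cells (SD, n = 4 each, adjusted p = 1.97e-05). The AP-1 subunit gene Fosl2 and the mRNA decay factor gene Zfp36 fell by 0.90 and 1.19 on the log2 scale. Dusp6, a phosphatase that acts on ERK and is induced by it, rose to 306 ± 20.8 CPM in lung cells, against 171 ± 25 CPM in tumor cells (SD, n = 4 each, adjusted p = 1.91e-05).

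Cholesterol and fatty acid synthesis genes fell almost as a block: 26 of 32 tested were lower in lung cells, 0 were higher, and the median was -0.94, with the same counts without lung library D. The shares over all genes were 10.9% lower and 10.1% higher. Summed over the list, the level was 1375 to 1507 CPM in lung libraries and 2803 to 4006 CPM in tumor libraries. Cyp51, the lanosterol demethylase of the sterol pathway, had 33.2, 36.9, 42.8 and 52.1 CPM in the lung libraries, against 176, 224, 146 and 175 CPM in the tumor libraries. The groups were far apart (log2 fold change -2.13 ± 0.19, adjusted p = 6.71e-09). Insig1, a sterol sensor, had 6.87 to 8.33 CPM in lung libraries and 25.8 to 39.1 CPM in tumor libraries.

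Further members that fell were named after their values were seen, and 6 of the 32 tested members were not called. Sqle, the squalene epoxidase, fell by 1.57, and Srebf2, the transcription factor that activates this pathway, by 1.32 on the log2 scale. Scd2, a fatty acid desaturase, had 139 to 238 CPM in lung libraries and 465 to 937 CPM in tumor libraries.

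**Figure D4:**
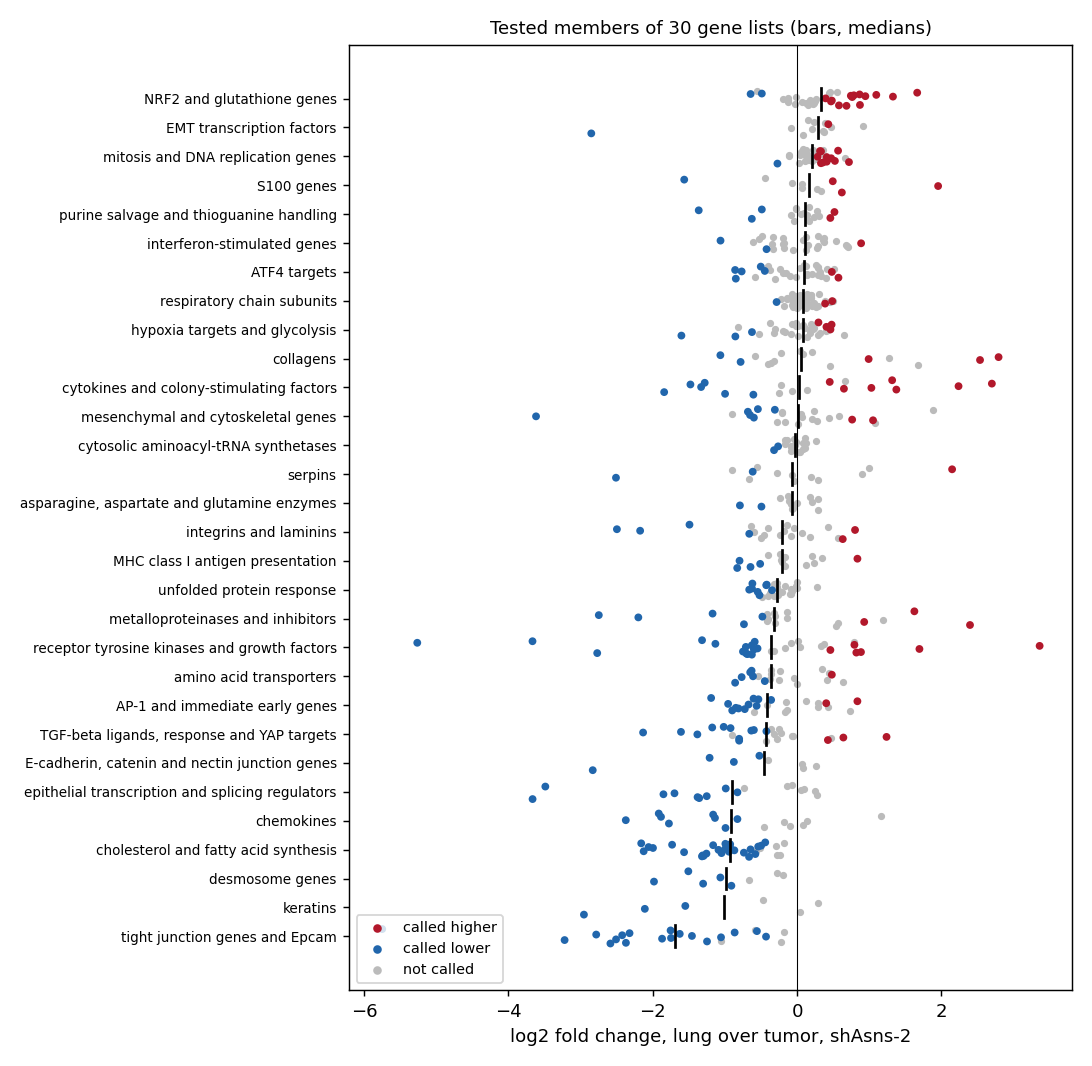
Log2 fold change, lung over tumor shAsns-2 cells, of the tested members of 30 gene lists, one point per gene colored by its call, with a bar at each list's median. Medians run from -1.69 for tight junction genes to 0.33 for NRF2 and glutathione genes, and the cholesterol list holds 26 falls and 0 rises.

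Of 34 tested NRF2 and glutathione genes, 14 were higher in lung cells and 2 lower (median 0.33), against 10.1% and 10.9% of all genes. Without lung library D the counts were 19 and 2. Nfe2l2, which encodes the NRF2 factor, had 208, 209, 202 and 132 CPM in the lung libraries, against 122, 120, 121 and 105 CPM in the tumor libraries. Library D was the lowest of the lung group, still above each tumor value (log2 fold change 0.68 ± 0.12, adjusted p = 0.000137). Its target Nqo1, a quinone reductase, rose to 91.8 ± 7.57 CPM in lung cells, against 50.3 ± 8.58 CPM in tumor cells (SD, n = 4 each, adjusted p = 5.56e-05). Mgst1, a microsomal glutathione transferase, rose by 1.10 and Gstm1, a cytosolic one, by 1.33 on the log2 scale. Gstm1 shares sequence with neighbouring family members, so its counts may be split among them.

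Genes of amino acid supply are set against 10.1% of all genes higher and 10.9% lower, or 1947 and 2030 of 12713 without lung library D. Calls of enzymes lay near those shares, and transporters fell more than they rose. Of 13 asparagine, aspartate and glutamine enzymes 0 rose and 2 fell, or 1 and 2 without lung library D. Gls2 had 5.50 to 6.25 CPM in lung libraries and 9.32 to 11.8 CPM in tumor libraries (log2 fold change -0.79, adjusted p = 0.000644). Among ATF4 targets, the stress genes that answer amino acid shortage, 2 of 31 rose and 5 fell (median 0.09), or 6 and 6 without lung library D. The transporters Slc1a5, Slc7a5 and Slc38a1, which carry glutamine or large neutral amino acids, fell by 0.86, 0.77 and 0.65. Slc1a5 had 42.2, 40.7, 47.1 and 78.4 CPM in the lung libraries and 82.1, 76.0, 94.8 and 125 CPM in the tumor libraries, where D was highest in both groups and the groups overlap. Of 19 transporters 1 rose and 6 fell, or 1 and 11 without lung library D.

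Protein folding and proliferation lists had medians of opposite sign. Their counts are set against 10.1% of all genes higher and 10.9% lower, or 1947 and 2030 of 12713 without lung library D. Of 27 unfolded protein response genes 8 fell and 0 rose (median -0.28), or 13 and 0 without lung library D. The secretory chaperone partner Sdf2l1 averaged 9.85 ± 1.55 CPM in lung cells and 15.6 ± 1.58 CPM in tumor cells (SD, n = 4 each, adjusted p = 0.000344), and Derl1, of the degradation channel, fell by 0.62. Of 39 mitosis and DNA replication genes 12 rose and 1 fell (median 0.21), or 20 and 0 without lung library D. Ccnb2, a mitotic cyclin, had 306, 304, 282 and 167 CPM in the lung libraries, against 184, 158, 166 and 136 CPM in the tumor libraries, with D the lowest of both groups. Mki67, the 1 that fell (log2 fold change -0.27, adjusted p = 0.047), kept its call in 5 of 17 alternatives.

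Antigen presentation genes of MHC class I fell in 4 of 15 cases and rose in 1, or in 5 and 1 without lung library D. Over all genes 10.9% fell and 10.1% rose. H2-K1, a class I heavy chain, had 115, 114, 139 and 188 CPM in the lung libraries, against 231, 214, 223 and 321 CPM in the tumor libraries, with D the highest in both (log2 fold change -0.83 ± 0.15, adjusted p = 0.000297). H2-D1 and the loading factor Tapbp fell by 0.65 and 0.80. Class I genes are near-identical in parts, so reads may have been split among them. Psmb8, an immunoproteasome subunit, rose by 0.84. Interferon-stimulated genes were called higher in 1 and lower in 2 of 28 cases, or in 2 and 1 without lung library D, whereas 20.9% of all genes were called.

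Hypoxia and glycolysis genes had 4 rises and 3 falls among 34, near the shares of 10.1% and 10.9% over all genes, and 8 and 4 without lung library D. Adm, adrenomedullin, fell to 9.91 to 14.2 CPM in lung libraries, against 27.4 to 47.7 CPM in tumor libraries (adjusted p = 5.15e-06). Car9, a carbonic anhydrase induced by low oxygen, had 15.7 to 20.9 CPM in lung libraries and 23.7, 58.8, 22.3 and 32.8 CPM in tumor libraries. Its call was lost without tumor library B (adjusted p = 0.0588). Metalloproteinases and their inhibitors had 3 rises and 5 falls among 20 genes, against the same shares, or 1 and 9 without lung library D. Respiratory chain, aminoacyl-tRNA synthetase, collagen, S100, serpin and purine lists had 47, 20, 16, 10, 13 and 18 tested genes. In that order they had 2, 0, 3, 3, 1 and 2 rises, against 10.1% of all genes. They had 1, 2, 2, 1, 2 and 3 falls, against 10.9% of all genes. Without lung library D, 8 of 47 respiratory chain genes rose, 3 of 16 collagens rose and 7 fell, and the other 4 lists had at most 4 calls in either direction.

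The remaining large rises had no list in common. The gene 1700012B09Rik (chromosome 9, 14756587 to 14771030, minus strand) had the largest rise that met the naming rule, with 22.7, 17.3, 26.8 and 26.7 CPM in the lung libraries, against 3.58, 1.92, 3.08 and 3.09 CPM in the tumor libraries. Both groups were tight and 8.32-fold apart (log2 fold change 3.06 ± 0.21, adjusted p = 4.37e-11). Mgp, an inhibitor of calcification, had 27.9, 26.9, 20.3 and 10.7 CPM in the lung libraries and 2.15 to 3.90 CPM in the tumor libraries. Mmp3, the protease stromelysin, had 470, 380, 568 and 490 CPM in the lung libraries, against 104, 77.0, 85.2 and 96.4 CPM in the tumor libraries (log2 fold change 2.40 ± 0.22, adjusted p = 1.25e-08).

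Trib2, a pseudokinase, and Angpt1, the ligand of the endothelial receptor Tek, both rose by 2.19 on the log2 scale. Serpine2, a secreted protease inhibitor, had 293 to 404 CPM in lung libraries and 62.2 to 107 CPM in tumor libraries. Amigo2, an adhesion molecule, had 42.4, 35.7, 35.1 and 22.0 CPM in the lung libraries, against 7.05, 9.05, 6.27 and 12.6 CPM in the tumor libraries. Phex, a membrane peptidase of phosphate balance, rose by 1.77 and Slpi, an inhibitor of leukocyte proteases, by 1.60. Slpi spread widely in lung cells, with 385, 289, 217 and 122 CPM, all above the tumor libraries at 79.8 to 92.4 CPM. Uox (urate oxidase), Gem (a small GTPase), Neurl1b, Slco4a1 (an organic anion transporter) and Gpr97 completed the set, with log2 fold changes of 1.55 to 1.83.

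Of the markers of lung epithelium, all 6 airway markers and 8 of 9 alveolar markers were under 1 CPM in all 8 libraries, with Sftpa1 at 0. The ninth alveolar marker, the lysosomal membrane protein gene Lamp3, had 34.3 to 51.6 CPM in lung libraries and 26.2 to 49.5 CPM in tumor libraries (adjusted p = 0.885), and made up nearly all of the alveolar sum of 34.5 to 51.7 CPM in lung libraries and 26.4 to 49.6 CPM in tumor libraries. T and NK cell markers summed to at most 0.0355 CPM in lung libraries and 0.152 CPM in tumor libraries, with Cd4, Cd8a and Nkg7 at 0. Leukocyte markers summed to 1.39 to 2.99 CPM in lung libraries and 0.239 to 0.860 CPM in tumor libraries, and 1 of the 5, Cd53, was called higher (adjusted p = 6.55e-06). Macrophage markers summed to 27.0 to 32.3 CPM in lung libraries and 23.1 to 27.1 CPM in tumor libraries, with Lyz2 at 0.898 to 1.47 CPM in lung libraries and 0.119 to 0.347 CPM in tumor libraries. Fibroblast markers summed to 23.9 to 27.2 CPM in lung libraries and 16.3 to 20.9 CPM in tumor libraries, and neutrophil markers to 4.68 to 8.21 CPM in lung libraries and 2.27 to 4.06 CPM in tumor libraries, with S100a8 called. The part of such low signals in the results above was not tested. In bulk RNA, a larger share of cells of a type and more RNA per cell cannot be told apart.

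Luminal mammary markers summed to 556 to 931 CPM in lung libraries and 959 to 1099 CPM in tumor libraries. Krt8 and Krt18 made up a large part of these sums in both groups. Of 9 tested luminal markers 4 were lower in lung cells, among them Cdh1, Epcam and Cldn3, and 0 were higher (1 without lung library D). The shares over all genes were 10.9% lower and 10.1% higher. Basal markers summed to 9.53 to 16.4 CPM in lung libraries and 35.2 to 58.0 CPM in tumor libraries, with Krt5 at 0 in all 8 libraries.

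The same lung over tumor contrast was available in cells with shRenilla and shares no library with the shAsns-2 one. There, 2749 genes (21.8%) were called, 1509 higher (12%) and 1240 lower (9.82%). Of the 2642 shAsns-2 calls, 1726 were also called in the same direction with shRenilla, 65.3% of the first set and 62.8% of the second, and 0 in the opposite direction. The fold changes correlated across 12625 genes with Pearson's r of 0.83, a description over genes, which are not independent, from contrasts of the same fit. The 5 epithelial lists had 36 falls and 2 rises with shRenilla, and the cholesterol list 23 falls and 0 rises.

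The difference between the lung over tumor changes with shAsns-2 and with shRenilla was tested directly, which asks whether the Asns hairpin altered the change. By edgeR 0 of 12625 genes passed (0%), with 599 at an unadjusted p under 0.05, limma also called 0, and DESeq2 called 1. That gene was Amigo2, named by its leading rise: its change was 1.94 ± 0.23 with shAsns-2 and 3.55 with shRenilla, a difference of -1.61 (95% interval -2.26 to -0.95, edgeR adjusted p = 0.281). For Cdh1 the difference was -0.07 (95% interval -0.58 to 0.44) and for Fgfbp1 -0.67 (-1.38 to 0.05), and both genes fell with each hairpin. For Asns itself the difference was 0.67 (0.20 to 1.13, adjusted p = 0.972). A missed threshold does not show that the 2 changes were alike.

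Set against the libraries labelled shAsns-1, the difference of changes was called in 1468 genes (11.6%), 598 higher (4.74%) and 870 lower (6.89%) with shAsns-2, or 1173 and 1085 with GC and length offsets. There, the lung over tumor contrast itself called 1079 genes (8.55%), 758 higher (6%) and 321 lower (2.54%). That split depended on the setting, with 667 higher and 399 lower under DESeq2 size factors, 890 and 799 with GC and length offsets and 2190 and 1926 by limma. In all, 296 of the 2642 shAsns-2 calls were shared with it in direction (11.2% of these, 27.4% of those), with 74 opposite. In the tumor libraries labelled shAsns-1 the mean log2 CPM of the epithelial genes was 2.64 to 2.98, against 3.93 to 4.24 in tumor shAsns-2 cells, and their scores on the first component were -21.6 to -14.3. Cdh1 averaged 20.3 ± 2.80 CPM in lung and 36.4 ± 7.91 CPM in tumor libraries labelled shAsns-1 (SD, n = 4 each). Tslp averaged 382 ± 66.0 CPM in those lung libraries and 480 ± 98.4 CPM in those tumor libraries (SD, n = 4 each).

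Of the 15 leading rises 12 also had a called positive difference from the shAsns-1 change, and of the 15 leading falls 14 had a called negative one. These genes were chosen by their shAsns-2 change, which enters the difference. Among genes with a mean log2 CPM of at least 3 over all 24 libraries, the largest called differences on the log2 scale were 3.03 for Tslp, 2.92 for Mgp and 2.45 for Trib2, and -3.37 for Moxd1, -2.94 for Fgfbp1 and -2.60 for Adamts1. The leading genes without a called difference were 1700012B09Rik, Serpine2 (0.95, adjusted p = 0.0698), Gpr97 (0.13, adjusted p = 0.856) and Esrp1 (-2.02, adjusted p = 0.0731). The first of these, 1700012B09Rik, rose in the libraries labelled shAsns-1 too. It averaged 19.2 ± 2.86 CPM in lung and 2.75 ± 0.852 CPM in tumor libraries labelled shAsns-1, and 24.4 ± 3.44 CPM in lung and 3.09 ± 0.435 CPM in tumor shRenilla cells (SD, n = 4 each). Its difference from the shAsns-1 change was 0.26 ± 0.28 (adjusted p = 0.601), and it was higher in every lung group than in the matching tumor group.

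**Figure D5:**
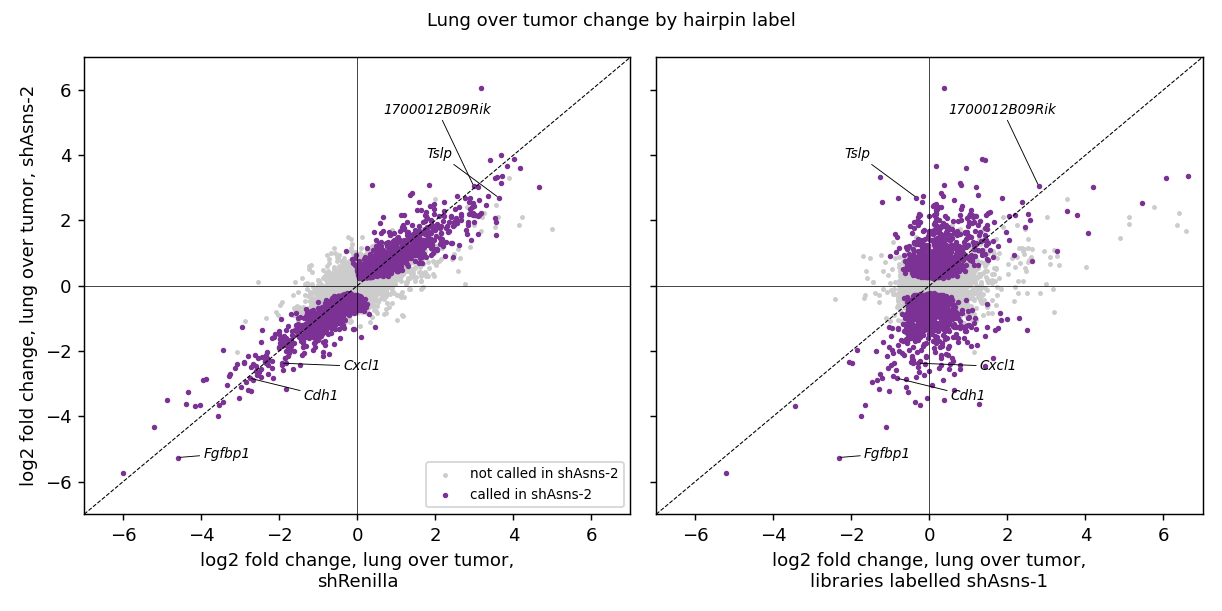
Log2 fold change, lung over tumor, of 12625 genes with shAsns-2 (vertical axes) against the same change with shRenilla (left) and in the libraries labelled shAsns-1 (right), with genes called in shAsns-2 in purple and a dashed line of equal change. Points follow the line on the left (r = 0.83), and on the right Tslp lies near 0 on the horizontal axis while 1700012B09Rik lies near the line (r = 0.29 over all genes).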

How the data were processed

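RNA of 24 libraries was sequenced after Trizol extraction and preparation with the NuGEN Ovation RNAseq V2 kit, per the labels' protocols. Per the file headers, the authors' table holds a column of counts for each library and 1 row for each of 23478 gene symbols, and these raw counts were used as deposited. The submitters' processing notes name Bowtie2, HTSeq and the build mm10 (GRCm38); versions, annotation, strand setting and filters are not given in the sources used here, so reads of overlapping or antisense genes cannot be told apart. GENCODE M21 gave coordinates, GC content and length for 23079 of them. Whether the 4 libraries of a group came from separate mice or cultures is not labelled. The p-values therefore cover the spread among libraries, part of which may be technical.

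All 24 libraries in 6 groups entered one edgeR 4.0.16 quasi-likelihood fit (R 4.3.3, TMM scaling, robust, filterByExpr), which left 12625 genes, with a biological coefficient of variation of 14.9%. Adjusted p-values are Benjamini-Hochberg over all 12625 genes, and "called" means under 0.05. Standard errors are the log2 fold change divided by the root of F. CPM use TMM library sizes and log2 CPM a prior count of 2. The differences between lung over tumor changes are contrasts in that fit. The script was tested on simulated data with known changes.

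Other settings tried were limma 3.58.1 with library weights, DESeq2 1.42.0 or its scaling alone, no filter, a fit of the compared groups alone, thinning to 8.48 M counts, GC and length offsets, a 2-fold minimum, a replicate block and the loss of any 1 library. Leaving out 2 libraries at once was chosen after seeing the data. The 17 alternatives counted for single genes leave out the 2-fold minimum.

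The members and gene lists were chosen with earlier results of these data known. Named genes were Asns and Hprt, the 15 largest rises and 15 largest falls with a mean log2 CPM of at least 3 and separate groups, the 4 largest called members of each list per direction, 11 epithelial and mesenchymal genes, and the 6 largest called differences per direction with a mean log2 CPM of at least 3 over all libraries. Krt8, Krt18, Sqle, Srebf2, Scd2, Nqo1, Nfe2l2, Lyz2, Cd53, Lamb3, Malat1, Kcnq1ot1 and Htra3 were added after their values were seen. Promoters were the first start listed per gene.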

Additional observations from a re-analysis of the deposited data

Results flagged for a closer look

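The change between lung and tumor cells differed between shAsns-2 and the libraries labelled shAsns-1 in 1468 genes by the edgeR test of the difference itself. Among genes with a mean log2 CPM of at least 3 over all 24 libraries, the 6 largest positive log2 differences were 3.03 for Tslp, 2.92 for Mgp, 2.45 for Trib2, 2.33 for Amigo2, 2.18 for Mmp3 and 2.17 for Phex. The 6 largest negative ones were -3.37 for Moxd1, -2.94 for Fgfbp1, -2.60 for Adamts1, -2.58 for Krt14, -2.50 for Mpzl2 and -2.49 for Adam12. Each is the shAsns-2 change minus the other, so it gives the gap between the 2 changes, not the direction in the libraries labelled shAsns-1. The mean of Tslp, for example, was lower in lung than in tumor libraries with that label.

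A single library lay far from the other 3 of its group in 20 of 206 groups of 4 examined, where chance gives about 1 in 20. Lung library D was the far one in 6 and tumor library D in 8. In lung library D, Fn1 (1544 CPM), Il11 (29.1 CPM), Slc1a5 (78.4 CPM) and Lamb3 (34.1 CPM) were high, and Nfe2l2 (132 CPM) and Psmb8 (14.7 CPM) were low. Mki67 (713 CPM) was high in lung library A. In tumor library D, Twist1 (38.4 CPM), Snai1 (3.14 CPM), H2-K1 (321 CPM), H2-D1 (496 CPM), Slc7a5 (145 CPM) and Slc38a1 (191 CPM) were high, and Nfe2l2 (105.0 CPM) and Psmb8 (11.9 CPM) were low. Cldn3 (8.53 CPM) and Gstm1 (1.01 CPM) were low in tumor library B, Il24 (147 CPM) was high in tumor library C, and Neurl1b (8.96 CPM) and Slpi (92.4 CPM) were high in tumor library A. The letters A to D do not pair lung with tumor libraries in the labels.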

How the results depend on the processing

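Of 103 named genes that were tested, 92 had the same direction and call under all 17 alternatives, and of 1749 values 0 reversed. The exceptions were Asns, Fn1, Zeb2, Twist1, Krt18 and Lamb3, which gained a call in 20 values, and Car9, Mki67, Lyz2, Acta2 and Tagln, which lost it in 36. These 17 alternatives leave out the 2-fold minimum, under which every call with a fold change under 2 is lost by construction. Depth limits genes of low counts most in tumor library A. The count of 2642 called genes was 5041 with limma, 3674 with GC and length offsets and 587 with a 2-fold minimum. It was 1650 when the 2 compared groups were fitted alone, where 1622 of the 2642 calls (61.4%) were made again. Leaving out 1 library gave 1782 to 3977, with 3977 without lung library D, and 3853 without tumor library A and lung library D. In the difference from the shRenilla change, where edgeR called 0 genes, DESeq2 called 1 (Amigo2, adjusted p = 0.00734), and leaving out 1 library gave 0 to 1, the 1 being Htra3 without lung shRenilla library B (adjusted p = 0.0372). For the difference from the shAsns-1 change, the count of 1468 was 5032 with limma, 2258 with GC and length offsets (1173 higher, 1085 lower, against 598 and 870) and 554 with a 2-fold minimum. Leaving out 1 library gave 928 to 3064, with 928 without lung shAsns-2 library A, 955 without library B and 3064 without library D. The cause of these moves was not tested, apart from the 2-fold minimum, which keeps fewer genes by construction. A replicate block on the letters gave 2597 calls (1252 higher, 1345 lower), 0 and 1519 for these 3 counts. Lung and tumor libraries of the same letter had correlated deviations from their group means of -0.0153 (A), 0.166 (B), 0.149 (C) and 0.347 (D). Pairing was taken to need every letter above 0.1, and 3 of 4 were, so the letters were not used to pair the samples, although the D libraries deviated alike.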
